A study of Bos taurus and Bos indicus x Bos taurus with 938 samples.

Results

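Cloned cattle embryos labelled as 8-cell were compared with cloned embryos labelled as 2-cell, blastomere by blastomere, in their open chromatin. All of these embryos were made by somatic cell nuclear transfer (SCNT), and the members were chosen by their titles, which give the type, the embryo and the cell number of each library. They came to 26.4% of the blastomeres in the table, from 64 embryos: 21 SCNT 8-cell embryos, with 80 blastomeres under title prefix 15243 and 65 under prefix 15244, and 43 SCNT 2-cell embryos, with 51 and 20 blastomeres. Both groups carry the organism label Bos taurus and the cell type label SCNT, and no label separates them further than cell number, embryo and the title prefix. Prefix 15243 holds 12 of the 8-cell and 32 of the 2-cell embryos, and prefix 15244 holds 9 and 11. Per the labels' protocols, oocytes came from abattoir ovaries and were matured in vitro, and each blastomere was separated into its own tube. The donor cell and the age of the embryos are not stated in the labels read for this comparison.

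In SCNT the nucleus of a somatic cell is placed in an oocyte whose own nucleus has been removed, and the transferred chromatin has to leave its somatic state before the embryo can use its genome. In cattle the first cleavages run largely on RNA and protein stored in the oocyte, and the main wave of embryonic genome activation comes around the 8-cell stage. The 2-cell stage therefore lies before that wave and the 8-cell stage at it. In ATAC-seq the Tn5 transposase cuts and tags DNA where chromatin is accessible, so that sequenced fragments mark open regions. In a single cell each locus has only a few copies to cut, and a region without a fragment may be closed or merely missed.

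The table lists regions by running number, without coordinates or genes, so regions are named here by their numbers (V1 onwards) with no gene, promoter or sequence. Each value is 1 (an open call) or 0, and 2.51% of the values in these blastomeres were open calls. The number of open calls of a blastomere stands in for depth, because the read counts behind the calls are unknown. Blastomeres of 1 embryo share their source, so every test below was made over embryos. The labels do not say whether the embryos of a stage came from separate days, so the tests measure only the spread between the embryos.

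Columns were tied to titles by number, and this link is an inference. One measurement bears on it: the excess in shared open regions of blastomeres placed in 1 embryo, over those placed in different embryos, was higher at the link used than at any shift of 1 to 4 columns either way. In prefix 15243 this excess in the Jaccard index (regions open in both, divided by regions open in either) was 0.00286, against 0.00148 to 0.00259 under the shifts. In prefix 15244 it was 0.00355, against 0.00158 to 0.00286. Within each prefix the titles of a stage form 1 unbroken run of numbers, so stage and place in the numbering cannot be told apart.

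Several libraries stood apart. All 8 blastomeres of 8-cell embryo 52 of prefix 15243 had 57.2 to 62.4% of their calls in regions that were rarely open elsewhere (defined below), a share that no other 8-cell blastomere and no 2-cell blastomere (0 of 71, highest 56.7%) reached. The next highest 8-cell blastomere, 26H, has the title number just before them, while the other 7 blastomeres of embryo 26 had 31.5 to 40.3%. At 3000 calls per blastomere the 8 blastomeres of embryo 52 had a mean Jaccard index of 0.0309 with each other and 0.0185 with the other 20 8-cell embryos. The median of such means for those 20 embryos was 0.0392 and the lowest was 0.0180. In the other direction, 3 8-cell blastomeres of different embryos of prefix 15243 (17C, 19H and 20G) had Jaccard indices of 0.371 to 0.390 with each other over all their calls, and 36.7 to 44.6% of their calls lay in a single dense block of the numbering. Values without embryo 52 and without these 3 libraries stand beside the results they move.

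**Figure D1:**
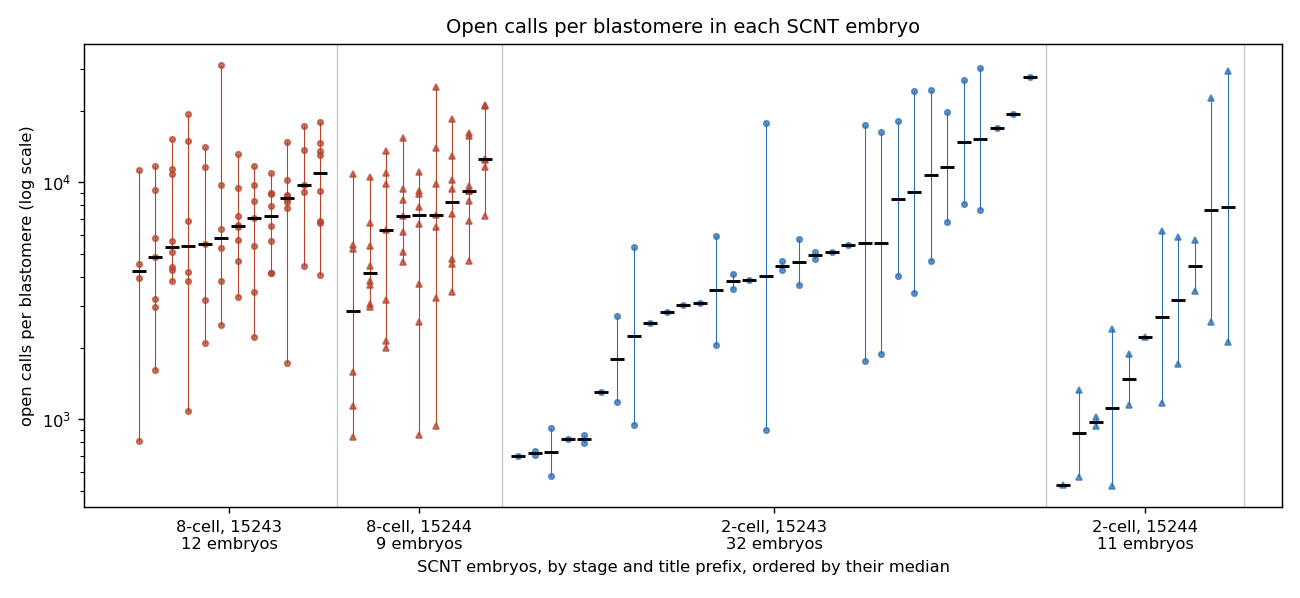
Open calls of each blastomere (vertical axis, log scale) in the SCNT embryos, grouped by stage and title prefix and ordered by their medians. Each vertical line joins the blastomeres of 1 embryo and the black bar is the embryo's median on the log scale. The medians of the 8-cell embryos run from 2878 to 12520 calls, while those of the 2-cell embryos reach up to 27821 and, in 17 of 43 embryos, lie under 3000.

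8-cell embryos gave more open calls per blastomere than 2-cell embryos, and differed less from each other. Embryo medians were 3.46, 3.85 and 4.10 on the log10 scale in 8-cell embryos (lowest, median and highest of 21), against 2.72, 3.58 and 4.44 in 2-cell embryos (of 43). The middle values correspond to 7061 and 3820 calls. The 2 groups overlapped: the highest 2-cell embryos exceeded every 8-cell embryo, while 17 of the 43 2-cell embryos and 1 of the 21 8-cell embryos had a median under 3000 calls. On the log10 scale the embryo medians averaged 3.82 ± 0.151 in 8-cell and 3.54 ± 0.443 in 2-cell embryos (SD, n = 21 and 43), a difference of 0.282 (permutation test, two-sided, p = 0.00628, adjusted p = 0.0141 over 9 single-value measures). Within prefix 15243 the difference was 0.204 and did not pass (permutation p = 0.123, adjusted p = 0.182). Within prefix 15244 it was 0.501 (permutation p = 0.00327, adjusted p = 0.0109). When blastomeres under 1000 calls were left out it was 0.148 and did not pass (permutation adjusted p = 0.133). Among embryos with every blastomere in the table it was 0.313 and did not pass (n = 9 and 28, permutation adjusted p = 0.0702). Blastomeres under 1000 calls made up 2.76% at the 8-cell stage and 19.7% at the 2-cell stage.

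The spread between embryos differed too. The distance of an embryo from the median of its stage averaged 0.115 ± 0.0995 log10 units in 8-cell and 0.353 ± 0.265 in 2-cell embryos (SD, n = 21 and 43), a difference of -0.238 (permutation adjusted p = 0.00243). A median over up to 8 blastomeres varies less than one over 1 or 2, so the same value was taken from the first blastomere of each embryo in label order: the difference was then -0.204 (permutation adjusted p = 0.0268). Within prefix 15243 it was -0.242 (permutation adjusted p = 0.0141) and within prefix 15244 -0.194 (permutation p = 0.0273, adjusted p = 0.0615).

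Within embryos, blastomeres differed in yield at both stages. In the 28 2-cell embryos with both blastomeres in the table, the sister with more calls had a median of 3.13 times as many as the other, with a range from 1.04 to 19.8. In 9 of these 28 embryos the sisters were more than 5-fold apart. In 8-cell embryos the ratio of the highest to the lowest blastomere started at 2.64, in embryo 19 of prefix 15243. At the other end an embryo of prefix 15244 had blastomeres from 939 to 25388 calls. Over all pairs of blastomeres of an embryo the mean difference was 0.345 ± 0.132 log10 units in 8-cell and 0.501 ± 0.371 in 2-cell embryos (SD, n = 21 and 28), which did not pass (permutation p = 0.0698, adjusted p = 0.126). The share of labelled libraries that have a column was 9.83 percentage points higher in 8-cell than in 2-cell embryos (n = 21 and 47), which also did not pass (permutation adjusted p = 0.182).

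To ask which regions made up the calls, each region was placed in a class by the share of 300 blastomeres of embryos made by in vitro fertilization (IVF) in which it was open. These embryos lie outside this comparison and carry the organism label Bos indicus x Bos taurus. Rarely open regions, those open in over 0 to under 5% of IVF blastomeres, number 210732. Only 1991 regions were open in 50% and over, and 3275 in 25 to under 50%. Each blastomere was thinned at random to 1000 calls, which equalises the number of calls but not the depth of the library they come from, and 6 classes were tested.

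8-cell embryos had fewer of their calls in rarely open regions. These regions took 33.8 ± 7.14% of the calls of 8-cell embryos and 39.4 ± 6.34% of those of 2-cell embryos (SD, n = 21 and 37), a difference of -5.59 percentage points (permutation p = 0.00304, adjusted p = 0.0182 over the 6 classes). The embryo values were 25.7, 33.2 and 59.01% at the 8-cell stage (lowest, median and highest), against 27.2, 39.6 and 53.8% at the 2-cell stage. The ranges overlap over most of their length, and the highest 8-cell value is embryo 52. Without embryo 52 the 8-cell mean was 32.5 ± 4.18% (SD, n = 20) against 39.2 ± 6.37% in 2-cell embryos, whose calls were thinned anew, and the difference was -6.69 percentage points (permutation adjusted p = 0.000480). Without the 3 similar libraries it was -5.05 (permutation adjusted p = 0.0452).

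The same direction was found in each prefix alone. In prefix 15243 the means were 34.1 ± 8.99% in 8-cell and 39.7 ± 6.87% in 2-cell embryos (SD, n = 12 and 27, permutation p = 0.0380, adjusted p = 0.114). In prefix 15244 the difference was -4.44 percentage points (n = 9 and 10, permutation p = 0.0470, adjusted p = 0.141). Neither prefix passed alone after adjustment, and with embryos stratified by prefix the difference was -5.43 (permutation adjusted p = 0.0256). With only the embryos that had every blastomere in the table, 9 8-cell and 25 2-cell embryos, the difference was -1.24 percentage points and did not pass (permutation adjusted p = 0.652). That set keeps embryo 52. With the first 2 blastomeres of each embryo, so that both stages give at most 2, it was -3.23 and did not pass (permutation adjusted p = 0.152).

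**Figure D2:**
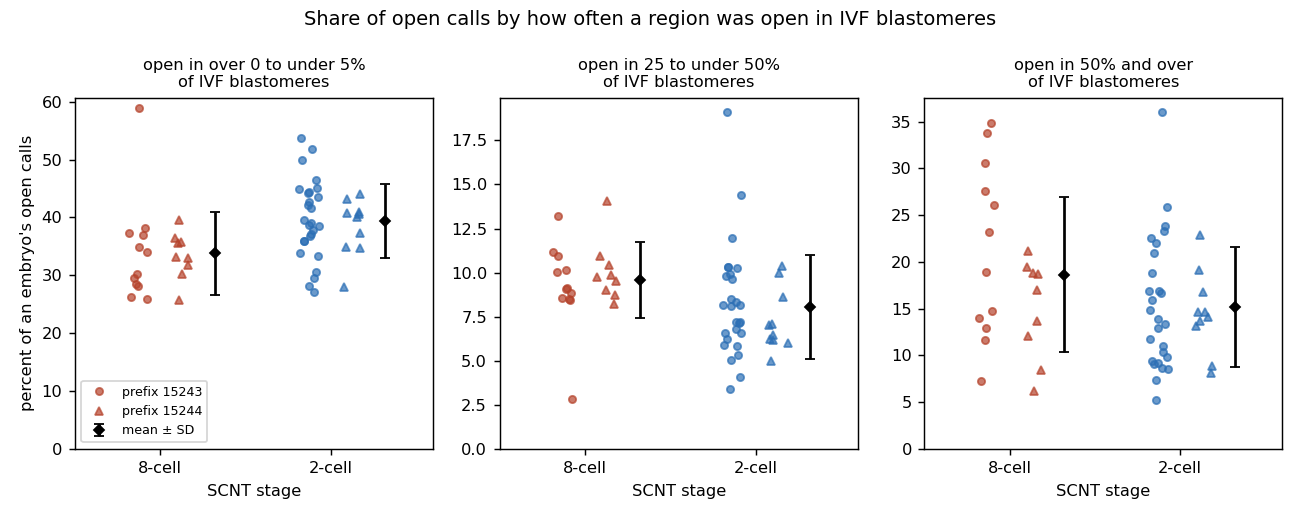
Percent of each SCNT embryo's open calls (vertical axis, each panel with its own scale from 0) in regions of 3 openness classes, with blastomeres thinned to 1000 calls. Circles are embryos of prefix 15243, triangles those of prefix 15244, and the diamond with its bar is the mean ± SD of the stage. In the left panel the 8-cell embryos lie around 33.8% and the 2-cell embryos around 39.4%, and 1 8-cell embryo stands alone at 59.01%.

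Commonly open regions made up more of the calls of 8-cell embryos on average, but not beyond the test. Regions open in 25 to under 50% of IVF blastomeres took 9.59 ± 2.16% of the calls of 8-cell and 8.04 ± 2.94% of those of 2-cell embryos (SD, n = 21 and 37, permutation p = 0.0375, adjusted p = 0.113). Within prefix 15243 the difference was 0.929 (permutation adjusted p = 0.466) and within prefix 15244 2.63 (permutation adjusted p = 0.0184). Over both prefixes it passed without embryo 52 (1.97 percentage points, permutation adjusted p = 0.0186). It also passed with blastomeres thinned to 3000 calls, where fewer 2-cell embryos remain (2.49 percentage points, n = 21 and 28, permutation adjusted p = 0.000180). Regions open in 50% and over took 18.6 ± 8.29% and 15.2 ± 6.38% (permutation adjusted p = 0.152). SCNT 4-cell embryos, not part of the test, lay between for rarely open regions: the means ran 39.4% at 2 cells, 36.4% at 4 cells (SD 5.59, n = 24) and 33.8% at 8 cells. For regions open in 25 to under 50% they ran 8.04%, 9.06% and 9.59%. For regions open in 50% and over they ran 15.2%, 14.8% and 18.6%, with the 4-cell embryos below both.

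The makeup of the calls moved with the number of calls as well, and the stages differ in that number. Among blastomeres with 1000 to under 2000 calls, rarely open regions took a median of 23.7% of all calls in 5 8-cell and 34.5% in 10 2-cell blastomeres. With 2000 to under 4000 calls the medians were 28.4% in 23 8-cell and 37.7% in 15 2-cell blastomeres. From 4000 to under 8000 calls the medians were 33.3% in 49 8-cell and 35.9% in 17 2-cell blastomeres. At 16000 calls and over they were 37.6% in 9 8-cell and 48.7% in 14 2-cell blastomeres. With 8000 to under 16000 calls, 55 8-cell blastomeres stood against a single 2-cell blastomere, with 36.9% and 34.7%. Blastomeres with 3000 to 10000 calls alone, thinned to 1000, gave 32.5 ± 7.96% in 8-cell and 37.6 ± 5.49% in 2-cell embryos (SD, n = 21 and 20), a difference of -5.12 percentage points (permutation p = 0.0203, adjusted p = 0.113). The part of depth in the difference was not tested beyond these values.

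**Figure D3:**
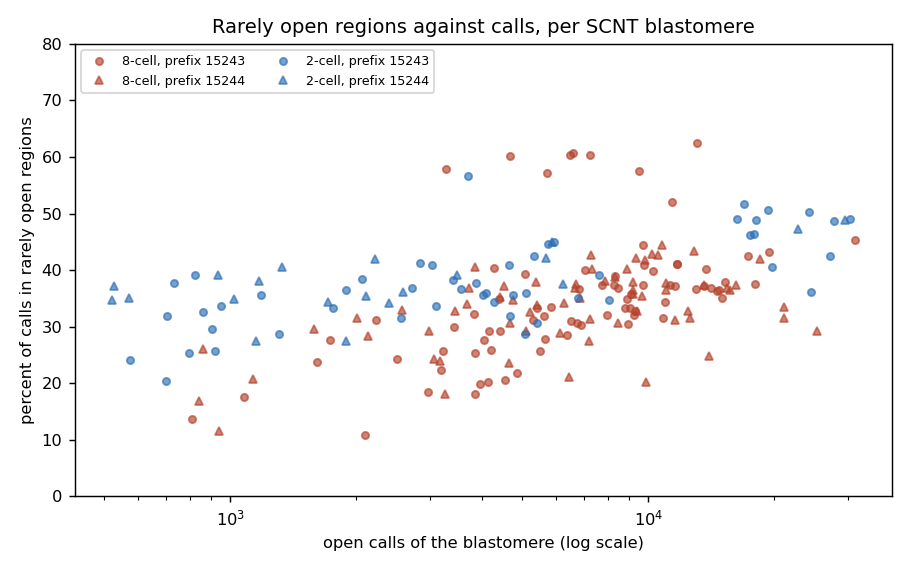
Percent of a blastomere's open calls in rarely open regions (vertical axis, all calls, not thinned) against its number of open calls (horizontal axis, log scale), 1 point per SCNT blastomere, with colour for stage and shape for title prefix. The 8 red circles between 57.2 and 62.4% are the blastomeres of 8-cell embryo 52, and the 2-cell blastomeres at 16000 calls and over have a median of 48.7%.

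Averaged over the stages, embryos of the same stage shared slightly more open regions than embryos of different stages, and which stage carried the excess varied. At 1000 calls per blastomere the mean Jaccard index was 0.0139 between different 8-cell embryos, 0.0110 between different 2-cell embryos and 0.0120 between an 8-cell and a 2-cell embryo. The mean of the 2 within-stage values exceeded the across-stage value by 0.000507 (permutation of stage over embryos, n = 21 and 37, p = 0.00490, adjusted p = 0.0141). The excess also passed within prefix 15243 (n = 12 and 27, permutation adjusted p = 0.0137), and it was 0.00123 within prefix 15244 (n = 9 and 10, permutation adjusted p = 0.00166). Taken by stage, the excess over the across-stage value was 0.00193 in 8-cell and -0.000914 in 2-cell embryos over both prefixes. Within prefix 15244 it was 0.000589 in 8-cell and 0.00186 in 2-cell embryos. With the first 2 blastomeres of each embryo it was 0.000560 and 0.000284. The pooled excess passed without embryo 52 (0.000577, permutation adjusted p = 0.0109) and without the 3 similar libraries (0.000437, permutation adjusted p = 0.0202). It did not pass among blastomeres with 3000 to 10000 calls (0.000476, permutation adjusted p = 0.0646) or among embryos with every blastomere in the table (0.000349, permutation adjusted p = 0.0907).

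Other measures of similarity did not pass the test. Whether 8-cell embryos resembled each other more than 2-cell embryos did, a difference of 0.00284, did not pass (permutation adjusted p = 0.182), and its sign turned in prefix 15244 (-0.00127). Blastomeres of 1 embryo had a mean index of 0.0178 in 8-cell and 0.0120 in 2-cell embryos. Their excess over embryos of the same stage was 0.00392 ± 0.00620 in 8-cell and 0.00151 ± 0.00436 in 2-cell embryos (SD, n = 21 and 20, permutation adjusted p = 0.182).

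The region numbers follow an order in which neighbours tend to be open together. From IVF blastomeres alone, the first 275000 regions fell into 29 main blocks, correlated at 0.896 (median) within a block and at no more than 0.280 across a block's start. After them come a dense block (V275001 to V278700), in which 37.8% of the values of those IVF blastomeres were open calls, a mixed segment and an end block. What the blocks stand for was not tested. The expected calls of a blastomere in any set of regions were computed from its total and from how often each region was open over all blastomeres compared, and coverage below means observed over expected calls on the log2 scale.

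8-cell embryos covered the blocks more evenly than 2-cell embryos. For this measure each blastomere was thinned to 2000 block calls. A block's calls were then set against their mean over the blastomeres kept from both stages, most of them 8-cell, and not against the expected calls above. The SD of this log2 ratio over the 29 blocks averaged 0.401 ± 0.0839 in 8-cell and 0.665 ± 0.423 in 2-cell embryos (SD, n = 21 and 30, permutation p = 0.00363, adjusted p = 0.0141). A block with under 0.1 of that mean occurred in 0 8-cell blastomeres and in 2 of 42 2-cell blastomeres, from 2 embryos, which is too few to compare the stages. The difference was -0.317 in prefix 15243 (n = 12 and 25, permutation adjusted p = 0.0393). In prefix 15244 it was -0.0470 and did not pass (n = 9 and 5, permutation adjusted p = 0.451). Among embryos with every blastomere in the table it was -0.168 and did not pass (n = 9 and 21, permutation adjusted p = 0.117). At 5000 block calls, where 14 2-cell embryos remain, it was -0.149 and did not pass (permutation adjusted p = 0.182).

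No part of the numbering passed a test of its coverage. Of 32 parts, 0 passed the permutation test (lowest adjusted p = 0.475) and 1 had an unadjusted p under 0.05: the mixed segment, with 0.0441 ± 0.227 in 8-cell and -0.102 ± 0.214 in 2-cell embryos (SD, n = 21 and 40, permutation p = 0.0148). Mean differences over the main blocks ran from -0.184 in block 23 to 0.209 in block 2. The SD of coverage between embryos was smaller at the 8-cell stage in each of the 29 main blocks, from 0.177 to 0.302 against 0.482 to 0.908. An 8-cell embryo sums up to 8 blastomeres and a median of 56419 calls, a 2-cell embryo at most 2 blastomeres and a median of 7410 calls, so these SDs are not at equal depth.

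No single region passed the test between the stages. Of 54200 regions open in at least 10% of the embryos, the region test called 0 (0% called, quasi-Poisson score test moderated with limma and an exact binomial test, Benjamini-Hochberg, lowest adjusted p = 0.739, n = 21 and 40), and 2116 had an unadjusted p under 0.05 (2.14% higher and 1.77% lower at 8 cells). With the score test alone, 72 were called higher and 99 lower at 8 cells. In prefix 15244 alone 1 of 113466 regions was called, lower at 8 cells (limma-moderated score test, adjusted p = 0.00168). A count of 0 does not show that no region differs. In data simulated from these blastomeres, the region test called 28 of 40 regions changed 16-fold. It called 0 of 40 changed 4-fold and 0 of 40 changed 2-fold. Of 40 regions changed 0.5-fold and 40 changed 0.25-fold, 28 and 19 were open in enough embryos to be tested, and it called 0 of them. Changes of these sizes were thus missed in this simulation. The noise added between embryos was the same at both stages, while in the data coverage varied less between 8-cell embryos.

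Regions at the top of the list are given as a description. Among those with the same direction in both prefixes, V283188 in the mixed segment had the smallest unadjusted p among the higher ones (2.72e-05, limma-moderated score test, adjusted p = 0.739). It was open in 81 of the 8-cell blastomeres (55.9%) and 7 of the 2-cell blastomeres (10.3%), where 64.9 and 23.1 were expected. Its neighbour V283190 was open in 90 and 10 (74.1 and 25.9 expected), and V283181, also near it, in 95 and 11 (78.6 and 27.4 expected). The 3 regions lie within 10 numbers of each other and may not be independent. In prefix 15243 V283188 was open in 53 8-cell and 6 2-cell blastomeres, and in prefix 15244 in 28 and 1.

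V145005 in block 15 was open in 37 8-cell blastomeres of 18 embryos and in 1 2-cell blastomere, against 27.2 and 10.8 expected. V274062 and V270849 in block 29 were open in 73 and 54 8-cell blastomeres and in 7 and 3 2-cell blastomeres. Of the lower ones, V285088, also in the mixed segment, was open in no 8-cell blastomere (6.32 expected) and in 9 2-cell blastomeres of 8 embryos (2.68 expected). V15699 in block 1 and V260389 in block 28 were each open in no 8-cell blastomere and in 8 2-cell blastomeres of 8 embryos. V147449 in block 16 was open in 2 and 12 blastomeres, V14991 in block 1 in 4 and 13, and V13700 in block 1 in 8 and 16. Each of these lower regions had few calls in all, with none over 24.

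The commonest regions were open in nearly every blastomere of both stages. V109812 in block 12 was open in 99.3% of 8-cell blastomeres and in 68 of 68 2-cell blastomeres. V227511 in block 26 was open in 97.9% and 98.5%. V277921 and V277924 in the dense block were open in 97.9% and 96.6% of 8-cell blastomeres and in 92.6% and 97.1% of 2-cell blastomeres. V291665 and V293890 in the mixed segment were open in 94.5% and 98.6%, against 98.5% and 86.8%. The log2 ratios of these 6 regions lay between -0.17 and 0.05, each with a standard error of 0.10 to 0.12. Whether they are single loci or repeated sequence cannot be read from their numbers.

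Calls were then summed over stretches of 100 consecutive regions, a test added after the data were seen. In embryos with at least 3000 calls (21 8-cell and 30 2-cell), 11 of 3029 stretches differed (limma on log2 observed over expected calls plus 1, Benjamini-Hochberg). Of these, 6 were higher (0.198% called) and 5 lower (0.165% called) at 8 cells. Of all 3029, 433 (14.3%) had an unadjusted p under 0.05 (limma). With embryos thinned to equal totals the share was 6.96% of 2989 stretches tested. The log2 difference over all stretches had a median of 0.09 and an SD of 0.28. Without embryo 52 the test called 16 stretches, the 11 among them, and without the 3 similar libraries it called 7. All 11 had the same sign in both prefixes, and with embryos thinned to equal totals 10 of the 11 had it. The 11 were chosen on these same embryos pooled over the prefixes, so a shared sign is largely set by that choice. With equal totals 0 stretches were called. None was called in prefix 15244 alone, where 6 2-cell embryos remain, and 1 stretch was called in prefix 15243 alone.

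The largest rise lay at the end of block 9. In the last stretch of that block, V93201 to V93300, log2 coverage per embryo was -0.55, 0.30 and 0.86 in 8-cell embryos (lowest, median and highest), against -3.36, -0.98 and 0.37 in 2-cell embryos. It was above 0 in 14 of 21 8-cell and 4 of 30 2-cell embryos, and the groups overlap between -0.55 and 0.37. The means were 0.19 ± 0.38 and -1.05 ± 0.95 (SD, n = 21 and 30), a log2 difference of 1.24 with a standard error of 0.22 (limma, adjusted p = 0.000424), or 2.36-fold. The difference was 1.21 ± 0.30 (SE) in prefix 15243 and 1.19 ± 0.31 in prefix 15244. Tested in each prefix alone, the difference did not pass (limma, adjusted p = 0.119 in prefix 15243 and 0.229 in prefix 15244). With embryos thinned to equal totals it was 0.81 and did not pass (limma, adjusted p = 0.113), and with complete embryos alone it was 1.23 and did not pass (limma, adjusted p = 0.0997).

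The stretch before it, V93101 to V93200, differed by 1.14 ± 0.21 (SE, limma adjusted p = 0.000512). Its difference was 1.37 ± 0.27 in prefix 15243 and 0.56 ± 0.33 in prefix 15244 (SE), where the unadjusted p was 0.101 (limma). The 7 stretches before V93101, from V92401 on, differed by 0.34 to 0.52 and none passed. Further back, the stretches starting at V92301 and V92201 differed by -0.20 and -0.26. The first stretch of block 10, V93301 to V93400, differed by 0.13 ± 0.21.

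The last stretch was intermediate in SCNT 4-cell embryos, which is likely for a stretch chosen by its gap between 2 and 8 cells. On 1 fit over all groups its coverage was -0.94 ± 0.94 in SCNT 2-cell (SD, n = 30), 0.01 ± 0.59 in SCNT 4-cell (n = 23) and 0.32 ± 0.38 in SCNT 8-cell embryos (n = 21). In IVF embryos it was -0.66 ± 1.28, -0.31 ± 1.01 and 0.06 ± 0.53 at the 2-, 4- and 8-cell stages (SD, n = 66, 20 and 14). The IVF difference between 8-cell and 2-cell embryos was 0.72 ± 0.34 (SE) and did not pass (limma, adjusted p = 0.203). For V93101 to V93200 it was 1.01 ± 0.28 and passed (limma, adjusted p = 0.0242). Of the 11 stretches it was the 1 called in IVF embryos too. The IVF difference had the same sign as in SCNT in 10 of the 11, some near 0 (-0.07 ± 0.25 in V160701). Stage and title prefix cannot be told apart in IVF embryos, as set out below.

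**Figure D4:**
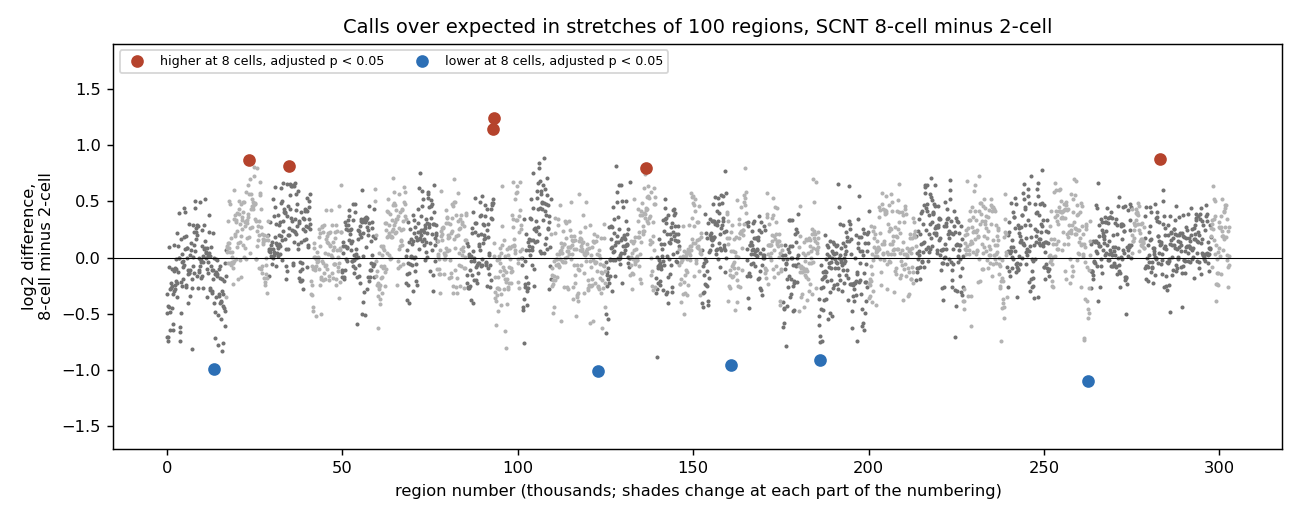
Log2 difference in coverage, SCNT 8-cell minus 2-cell embryos (vertical axis), for 3029 stretches of 100 regions along the numbering (horizontal axis, region number in units of 1000). Large points are the 6 higher and 5 lower stretches with an adjusted p under 0.05, and the pair at the top are the last 2 stretches of block 9.

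The other 4 higher stretches were spread over the numbering. V23501 to V23600 in block 2 differed by 0.87 ± 0.21 (SE, limma adjusted p = 0.0433), V35001 to V35100 in block 3 by 0.82 ± 0.20 and V136701 to V136800 in block 14 by 0.80 ± 0.20. The remaining one, V283101 to V283200 in the mixed segment, differed by 0.87 ± 0.22 and holds the 3 single regions V283181, V283188 and V283190. Its coverage was above 0 in 16 of 21 8-cell and 3 of 30 2-cell embryos, and 1 8-cell embryo lay far below the rest at -2.67. The difference between IVF stages there was -0.02 ± 0.23 (SE, limma adjusted p = 0.979).

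Of the lower stretches the first by p was V13601 to V13700 in block 1, which ends with the single region V13700. Coverage was -1.33, -0.70 and 0.68 in 8-cell embryos (lowest, median and highest) and -1.92, 0.69 and 1.75 in 2-cell embryos, above 0 in 4 of 21 and 22 of 30. The difference was -0.99 ± 0.22 (SE, limma adjusted p = 0.0235), and the next stretch, V13701 to V13800, differed by -0.71 ± 0.19 without passing (limma, adjusted p = 0.0672). SCNT 4-cell embryos were again between, with 0.86 ± 0.95 at 2 cells, 0.47 ± 0.85 at 4 cells and -0.01 ± 0.56 at 8 cells on the fit over all groups.

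The other lower stretches were V262501 in block 28, V186201 in block 23, V160701 in block 18 and V122801 in block 12, each named by its first region, with differences of -1.10, -0.91, -0.96 and -1.01. Their 8-cell embryos were above 0 in 5, 7, 5 and 4 of 21 cases and their 2-cell embryos in 19, 22, 21 and 23 of 30. The 2-cell tallies rest partly on single calls. In V262501 some 2-cell embryos were above 0 on 1 call, where 0.313 to 0.685 calls were expected. Single calls also put 2-cell embryos above 0 in V186201, V160701 and V122801.

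**Figure D5:**
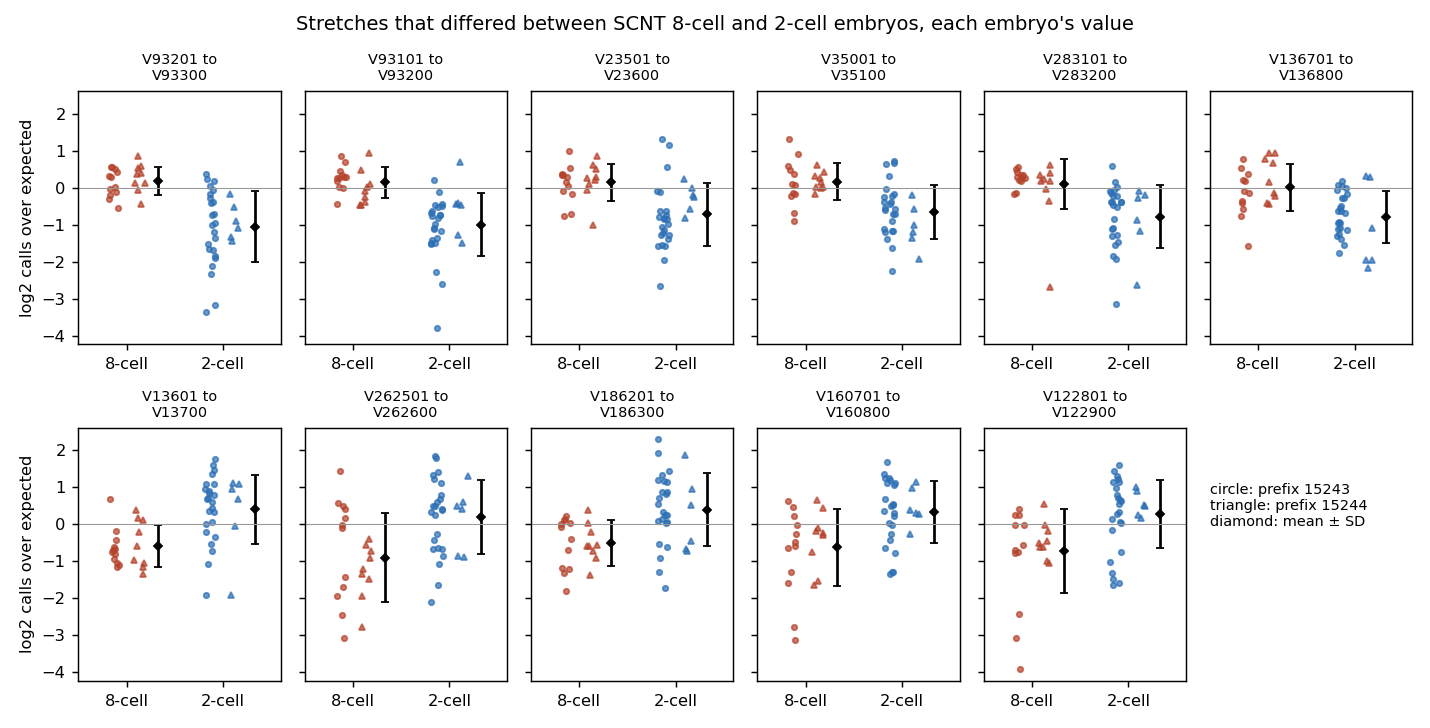
Log2 calls over expected of every SCNT embryo with at least 3000 calls (vertical axis) in the 11 stretches that differed, the 6 higher ones in the upper row and the 5 lower ones below. Circles are embryos of prefix 15243 and triangles those of prefix 15244, and the diamond with its bar is the mean ± SD of the stage. In V93201 to V93300 the 8-cell embryos lie between -0.55 and 0.86 and the 2-cell embryos between -3.36 and 0.37.

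Regions called between the IVF stages were followed in SCNT embryos. The same region test on IVF embryos called 8791 regions higher and 3060 lower in 14 8-cell than in 66 2-cell embryos, of 137121 tested. In IVF nearly all 2-cell embryos have 1 title prefix and all 8-cell embryos the other, so stage and prefix cannot be told apart there. Of the 8791, 4044 were among the 54200 tested in SCNT, and 75.6% of them had more calls than expected in 8-cell SCNT embryos, where 29244 of the 54200 regions tested had. Their median log2 ratio was 0.57, against 0.09 for all regions. Of the 3060, 1454 were tested, 28.6% had more calls than expected at 8 cells, and their median log2 ratio was -0.46. Such shares depend on how expected calls are set and on the filter. Over all tested regions the share was 34.8% with expected calls taken from commonly open regions. Among regions open in at least 25% of embryos it was 67.3%. The filter also admits regions through the deeper 8-cell embryos: 1380 tested regions had calls at 8 cells only and 11 at 2 cells only. How the shares of the 2 lists move with these settings was not tested.

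At an unadjusted p under 0.05, 6.03% of the 4044 were higher and 0.247% lower at 8 cells, where the shares over all tested regions were 2.14% and 1.77%. Of the 1454, 0.413% were higher and 5.43% lower. The pattern was seen within a class of openness too: among regions open in 10 to under 25% of IVF blastomeres, 73.2% of the list higher in IVF and 29.6% of the list lower in IVF had more calls than expected at 8 cells, against 59.5% of all tested regions of that class. The shares were not the same in the prefixes, a difference that was not tested. In prefix 15243, 62.9% of the first list and 29.4% of the second had more calls than expected at 8 cells, against 51.3% of all. In prefix 15244 the shares were 73.5% and 53.7%, against 57.3%.

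Over embryos this difference did not pass. Of an embryo's calls in either list at 1000 calls per blastomere, 65.4 ± 14.8% in 8-cell and 59.8 ± 13.0% in 2-cell embryos lay in the list higher in IVF 8-cell embryos (SD, n = 21 and 37, permutation p = 0.140, adjusted p = 0.182). At 3000 calls per blastomere the shares were 68.7 ± 11.4% and 59.4 ± 6.44% (SD, n = 21 and 28), and the difference of 9.22 percentage points passed (permutation adjusted p = 0.00252). Within prefix 15244 at 1000 calls the direction turned, with 67.7 ± 17.1% in 8-cell and 71.3 ± 9.68% in 2-cell embryos (SD, n = 9 and 10, permutation adjusted p = 0.579).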

How the data were processed

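Blastomeres were profiled singly for open chromatin (ATAC-seq). The submitters' processing notes name FastQC 0.10.1, Bowtie2 2.2.6 and bedtools, with no role. The build of the genome and the rule behind an open value are not stated by the labels or headers. As deposited by the authors, the table holds 0 or 1 for 302830 regions in 819 blastomeres, read here as closed and open, and 216 of 238 labelled SCNT 8- and 2-cell libraries have a column. Column numbers up to 259 were read as title numbers of prefix 15243, and those from 500 to 729, less 499, as those of prefix 15244.

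The chance of a call was taken as 1 - exp(-ar), with a factor a per blastomere and r per region fitted to the totals (12 iterations). Single values were compared by two-sided permutation of embryos (100000 resamples), with Benjamini-Hochberg adjustment over 9 measures, 6 classes or 32 parts (threshold 0.05). The region test took embryos from 1000 calls and regions open in 10% of embryos or more. The stretch test, added after the data were seen, took embryos from 3000 calls and stretches from 20 calls, with a pseudocount of 1. Software was Python 3.11.15, numpy 2.4.6, scipy 1.17.1, R 4.3.3 and limma 3.58.1. Both tests were run on simulated data with known changes. There the stretch test called 11 of 20 stretches changed 2-fold and 7 of 20 changed 0.5-fold. Of the single regions changed, the region test called only some of those changed 16-fold. Named regions are the 6 of smallest p in each direction, with the same direction in both prefixes, and the 6 open in most embryos. Calls per blastomere ran from 810 to 31275 at 8 cells and from 522 to 30371 at 2 cells. Members, lists and tests were chosen with earlier results of these data known.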

Additional observations from a re-analysis of the deposited data

Results flagged for a closer look

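1 of 15 groups of 4 to 10 embryos held an embryo far from the others, and chance alone gives about 1 in 20. Among the 9 8-cell embryos of prefix 15244, the blastomeres of embryo 53 were more similar to each other than to those of other 8-cell embryos. This excess was 0.0161 in the Jaccard index, where the next embryo had 0.00412. Embryo 53 had the lowest median calls of the 8-cell embryos, 2878.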

How the results depend on the processing

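No paired analysis was possible because the embryos of the 2 stages are different individuals and their numbers do not pair them. Within prefix 15243 the differences in log10 calls (0.204) and in rarely open regions (-5.66 percentage points) no longer passed, and 1 stretch was called. Within prefix 15244 the spread between embryos (-0.194), unevenness (-0.0470) and rarely open regions (-4.44) no longer passed, with 1 region (0.000881% of those tested) and 0 stretches called, and the similarity among 8-cell over 2-cell embryos (-0.00127) and the share of the list higher in IVF 8-cell embryos (-3.58) turned their sign. With complete embryos only, calls (0.313), unevenness (-0.168), within-stage over across-stage similarity (0.000349) and rarely open regions (-1.24) no longer passed and 0 stretches were called, and similarity among embryos turned to -0.000438.

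With column numbers shifted by 1, the spread within embryos (-0.351) and own-embryo similarity (0.00488) passed and 25 stretches were called. Shifted by -1, the spread within embryos (-0.231) passed and 7 stretches were called. Without blastomeres under 1000 calls, calls (0.148) no longer passed, nor did unevenness at 5000 block calls (-0.149). The IVF list share passed at 3000 calls (9.22) and without thinning (9.48). The score test alone called 0.315% of the regions, and equal totals left 0 stretches.

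The next alternatives were chosen after seeing the data. With the first 2 blastomeres of each embryo, own-embryo similarity turned to -0.000178, rarely open regions (-3.23) no longer passed and 7 stretches were called. With the first blastomere alone calls differed by 0.285 without passing. With 3000 to 10000 calls, within-stage over across-stage similarity (0.000476) and rarely open regions (-5.12) did not pass, and the IVF list share (9.63) did. In the main blocks alone, own-embryo similarity (0.00242) and the IVF list share (8.06) passed. Stretches called numbered 7 without the 3 similar libraries and 29 in embryos with at least 10000 calls. Without embryo 52, 16 were called, among them the 11. In each case the cause was not tested. Depth in reads is unknown, 17 of 43 2-cell embryos have a median under 3000 calls, and stage and place in the title numbering cannot be told apart.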
